A study of Mus musculus with 4 samples.

Results

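Vip interneurons were taken from single-nucleus RNA counts of mouse brain and were chosen by the UMIs of 6 genes. Nuclei were kept when they held between 500 and 50000 UMIs, over 200 genes and less than 5% mitochondrial UMIs. Of the 52132 kept, a nucleus was a member when it held at least 1 UMI of *Gad1* and *Gad2* together, at least 3 of *Adarb2*, at least 2 of *Vip*, and at most 1 each of *Sst* and *Slc17a7*. The rule found 418 nuclei, 265 WT and 153 *Csf1r*+/- (HET). A UMI is a tag that counts 1 captured RNA molecule, and CPM is the UMIs of a gene scaled to 1e6 UMIs summed over the nuclei of a group in a library.

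The brains came from untreated 2-month-old C57/BL6 female mice, perfused before nuclei were prepared without detergent and depleted of myelin. WT mice and mice carrying 1 disrupted copy of *Csf1r*, the receptor for the growth factors CSF-1 and IL-34 on which microglia depend, gave 2 libraries each, 1 mouse to a library; one further library per genotype is not analysed here. The disruption was present in the whole body, so nothing in the model restricted it to a cell type, and whole brains were used, so the nuclei were not confined to the cortex. The study asked how losing 1 copy of *Csf1r* affected brain cells before symptoms.

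Interneurons that make vasoactive intestinal peptide (*Vip*) arise mainly in the caudal ganglionic eminence (CGE) of the embryo. The same holds for many other interneurons of the cortex with *Adarb2*, *Prox1* or *Npas1*, but not for all neurons of the brain with these genes. Those with *Sst* or *Pvalb* arise mainly in the medial ganglionic eminence (MGE) under *Nkx2-1* and *Lhx6*. In the cortex Vip cells mostly inhibit other interneurons, above all those with *Sst*, and so release pyramidal cells from inhibition. They receive serotonin through the ion channel encoded by *Htr3a* and acetylcholine through nicotinic receptors, and some make acetylcholine themselves with the enzyme encoded by *Chat*. Cells with *Calb2* and cells with *Cck* are commonly described as separate kinds.

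The members numbered 121 in WT 1, 144 in WT 2, 90 in HET 1 and 63 in HET 2. Their summed depth was 743927, 765623, 653792 and 352337 UMIs in the same order, so HET 2 was the shallowest library for the summed counts of Vip nuclei. The median member held 4708, 4371, 5498.5 and 5591 UMIs. Nuclei of the oligodendrocyte lineage (at least 2 UMIs of *Mag* and *Mog* together and none of *Gad1* or *Gad2*) served as a background for shares of nuclei with a UMI. They should lack most interneuron genes. Their median depth was lower, at 2303, 2362, 2437 and 2300.5 UMIs. A high doublet score, read as described below, was held by 83 of 328, 240 of 1135, 72 of 447 and 59 of 300 of them, and they were kept. No member barcode occurred in more than 1 library, although 33 to 68 of the kept barcodes were shared by each pair of libraries.

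At the limit of the rule, 90 members (21.5%) held exactly 2 *Vip* UMIs and 104 further nuclei met every other condition with 1 *Vip* UMI. Exactly 3 *Adarb2* UMIs were found in 4 members, a single *Gad1* or *Gad2* UMI in 122, 1 *Slc17a7* UMI in 44 and 1 *Sst* UMI in 4. The median member had 4 *Vip* UMIs in WT 1, 6 in WT 2, 5.5 in HET 1 and 4 in HET 2, and the highest had 63. *Vip* itself (chr10:5639218-5647617, plus strand, mm10) reached 856, 1584, 1242 and 1141 CPM in the 4 libraries and *Adarb2* 11705, 10038, 11995 and 16271 CPM. These values chose the nuclei and are given as a description only.

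The label was checked against genes that the rule did not read. *Egfr*, the epidermal growth factor receptor (chr11:16752203-16918158, plus strand, mm10), had a UMI in 67.5% of members and in 1.22% of oligodendrocyte nuclei. *Prox1*, a homeobox factor of CGE interneurons, had one in 63.6%, although it was also found in 33.1% of oligodendrocyte nuclei. Of the MGE factors, *Nkx2-1* and *Lhx8* had no UMI in any member and *Lhx6* had 4, 3, 0 and 0. Others were present, with *Satb1* in 19.1%, *Etv1* in 9.09% and *Sox6* in 7.66% of members, and the list of 7 summed to 254, 205, 125 and 48.2 CPM in WT 1, WT 2, HET 1 and HET 2. *Slc17a8*, a vesicular glutamate transporter that some *Cck* interneurons carry, and *Krt73* had no UMI in any library. With 0 of 418 nuclei, a share of up to 0.718% of nuclei with a UMI is allowed (3 counts over all members), which does not limit the share that express the gene.

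The libraries did not stand alike. WT 2 had a median of 0.625% mitochondrial UMIs per member against 0.272%, 0.358% and 0.225% in WT 1, HET 1 and HET 2. Its members also held more UMIs of cytosolic ribosomal proteins (3803 summed CPM against 1905, 1805 and 2032), of astrocyte markers (972 against 575, 528 and 454) and of endothelial and mural markers (278 against 80.7, 62.7 and 82.3). HET 2 differed in another way, since 22.2% of its member UMIs came from sub-clusters 2 and 7, described below, against 45.2% in WT 1, 38.5% in WT 2 and 44.8% in HET 1.

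Members were next set beside 3 other groups of *Gad1* or *Gad2* nuclei, namely 4282 nuclei with *Adarb2* and no *Vip*, 653 with *Sst* and 94 with *Pvalb* (at least 2 UMIs of the naming gene and at most 2 of *Adarb2*). Because *Vip* and *Adarb2* chose the nuclei, the comparison is a description with no test. The groups are called interneuron groups by these counts alone, and whether all nuclei with *Adarb2* and no *Vip* are interneurons was not tested. The 14 excitatory neuron genes followed below summed to 2048 CPM over the libraries in that group. The sum was 1596 in Vip nuclei, 842 in *Sst* nuclei and 862 in *Pvalb* nuclei. Of 3647 genes detected in 20% or more of members, 275 (7.54%) were higher in Vip nuclei than in all 3 groups in all 4 libraries, and 22 (0.603%) were at least 4 times the highest of the 3 group means. Of 4229 genes detected in 20% or more of the nuclei of whichever of the 3 groups had the lowest mean, 351 (8.3%) were lower in Vip nuclei. They were lower than in all 3 groups in all 4 libraries, and for 3 the lowest group mean was at least 4 times the level in Vip nuclei.

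*Grpr*, *Tac2* and *Crh* had the largest ratios of the genes higher in Vip nuclei, after *Vip* itself. *Grpr*, the receptor for gastrin-releasing peptide, was at 26.9, 86.2, 59.7 and 56.8 CPM in WT 1, WT 2, HET 1 and HET 2, 47.9 times the highest of the other groups. *Tac2*, which encodes the neurokinin B precursor, was at 113, 142, 85.7 and 116 CPM, 34.3 times the highest other group. *Crh*, which encodes corticotropin-releasing hormone, was at 63.2, 153, 96.4 and 79.5 CPM, 18.0 times. All 3 genes were below 6 CPM on average in each of the other groups, and WT 2 was the highest library for each of them.

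*Egfr* was also higher, at 489, 334, 363 and 448 CPM against 55.2 in other *Adarb2* nuclei, 4.53 in *Sst* nuclei and 0.648 in *Pvalb* nuclei. *Igf1*, insulin-like growth factor 1, was at 277, 502, 367 and 431 CPM in Vip nuclei and 38.2, 80.5 and 1.05 CPM in the other groups, a ratio of 4.90 to the highest. *Wnt5b*, a Wnt ligand, was 7.04 times and the chemokine gene *Cxcl14* 9.47 times the highest other group. In every library these 4 genes were higher in Vip nuclei than in each other group, as the selection required.

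*Cp*, which encodes ceruloplasmin, a copper-carrying ferroxidase, was the member of the metal-handling list that separated Vip nuclei. It was at 43.0, 79.7, 68.8 and 73.8 CPM, 12.4 times the highest other group, and had a UMI in 23.2% of members against 3.17% of oligodendrocyte nuclei. Receptors and channels in the set were *Adra1b*, an adrenergic receptor (8.41 times), *Cnr1*, the cannabinoid receptor (4.33 times), *Asic4* of the acid-sensing channel family (4.70 times) and *Kcnt2*, a sodium-activated potassium channel (4.23 times). *Fbln2*, *Cbln2*, *Gpd1*, *Adam12* and *Cpne2* were 4.25 to 9.94 times the highest other group. *Prox1* was 4.59 times and the antisense transcript *Prox1os* 9.71 times, but the genes overlap on opposite strands. The sources used here do not state a strand setting for the counts, and whether reads of one gene were counted for the other was not tested.

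**Figure D1:**
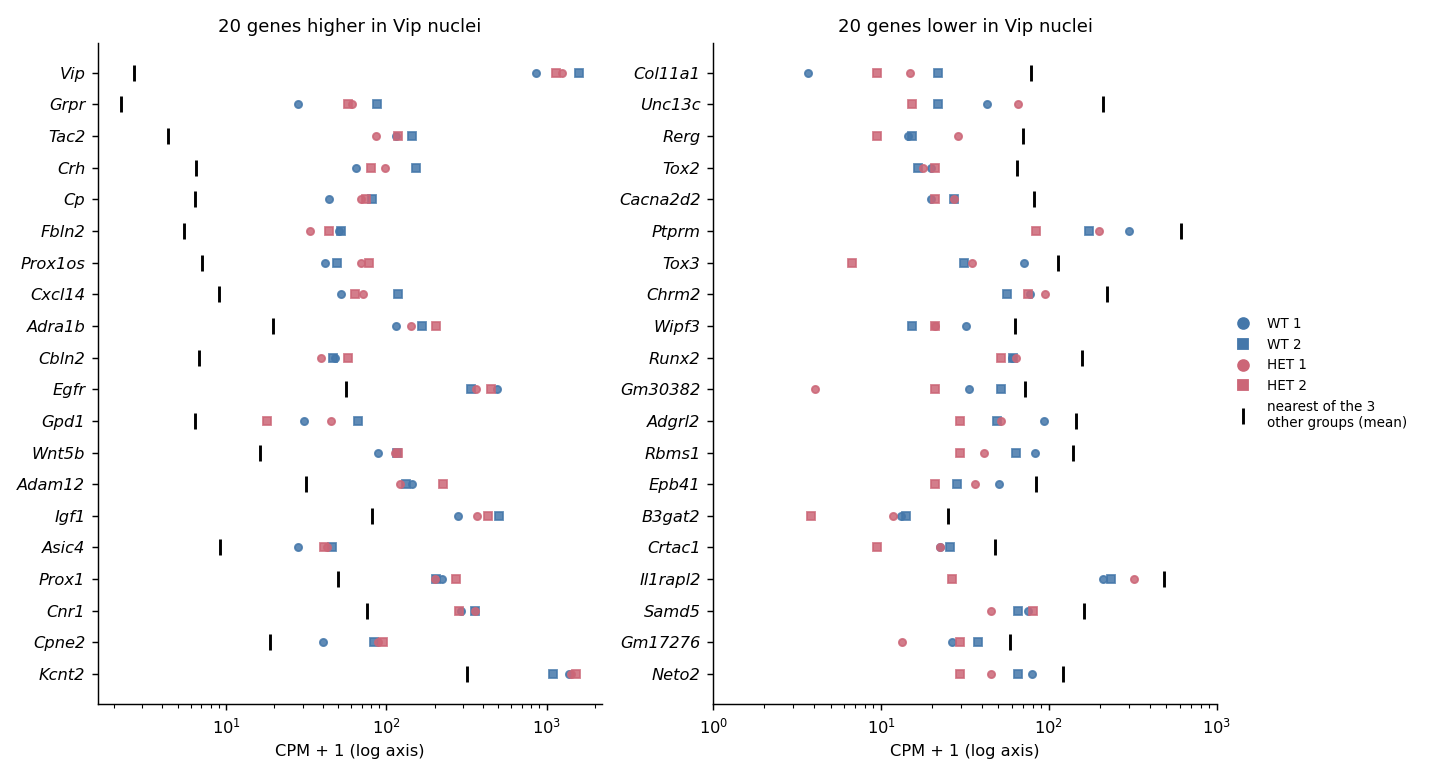
Levels of the 20 genes highest (left) and the 20 lowest (right) in Vip nuclei relative to 3 other interneuron groups, as CPM + 1 on a log axis; each symbol is a library and each black tick the mean over libraries of the nearest other group. *Grpr*, *Tac2* and *Crh* lie furthest from their ticks after *Vip*, which the rule used, and the genes on the right differ from theirs by smaller ratios, 6.71 for *Col11a1* and 2.24 for *Neto2*.

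The genes lower in Vip nuclei were led by *Col11a1*, a fibrillar collagen, at 2.69, 20.9, 13.8 and 8.51 CPM, 6.71 times below the lowest other group. *Unc13c*, a presynaptic vesicle-priming gene, was at 41.7, 20.9, 64.2 and 14.2 CPM, 5.89 times below. *Cacna2d2*, an auxiliary calcium channel subunit (3.56 times below), *Chrm2*, the muscarinic M2 receptor (2.94 times), and *Neto2*, an auxiliary subunit of kainate receptors (2.24 times), followed, with the nuclear factors *Tox2*, *Tox3* and *Runx2* between 2.68 and 3.59 times below. *Il1rapl2* was at 210, 234, 320 and 25.5 CPM, and HET 2 was far below the other 3 libraries. That gene led sub-cluster 2, of which HET 2 held the smallest share.

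Transcription factors of the CGE lineage summed to 8070 CPM over the 4 libraries in Vip nuclei and 4414 in other *Adarb2* nuclei, and all on the list had UMIs in both groups. The sum was 5106 in *Sst* nuclei, 3436 in *Pvalb* nuclei and 4697 in oligodendrocyte nuclei, so it was not particular to CGE cells. *Npas3* was at 2579 CPM over the 4 libraries in Vip nuclei and 729 in other *Adarb2* nuclei, *Maf* at 252 and 58.4, and *Npas1* at 42.3 and 8.27. *Zfhx3* (82.6 and 375 CPM) and *Meis2* (136 and 1076 CPM) went the other way. *Meis2* marks several CGE and lateral ganglionic eminence populations, including neurons outside the cortex, and the other *Adarb2* nuclei were drawn from whole brain. Of the 7 MGE factors, *Sox6* averaged 63.7 CPM in Vip nuclei and 1036 in *Sst* nuclei.

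Receptor tyrosine kinase genes of the ERBB family were uneven. *Erbb4*, the neuregulin receptor of many interneurons, was at 10275, 8030, 9107 and 11307 CPM and had a UMI in 98.8% of members; oligodendrocyte nuclei had one in 85.5%. *Erbb2* and the EGFR ligands *Areg* and *Ereg* were listed at 0, *Erbb3* had 8 UMIs in all, and the ligands *Egf*, *Hbegf* and *Tgfa* had 21, 22 and 14. The neuregulin gene *Nrg3* was at 5883 CPM in Vip nuclei and 5213 in other *Adarb2* nuclei, and *Nrg1* at 1228 and 2807.

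The 418 members were clustered among themselves to describe how they varied. Leiden clustering gave 7 sub-clusters of 96, 80, 66, 65, 53, 43 and 15 nuclei, each with nuclei of all 4 libraries. Genes that lead a sub-cluster were used to form it and are given with no test, and no sub-cluster was given a cell type name. As background, oligodendrocyte nuclei had a UMI of *Calb2* in 1.18%, *Cck* in 9.55%, *Crh* in 0.317%, *Npy* in 1.95%, *Penk* in 1.90% and *Reln* in 6.02%.

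Sub-cluster 1 (96 nuclei) carried cholinergic genes. *Slc5a7*, the high-affinity choline transporter, had a UMI in 24.0% of its nuclei against 5.28% of the other members, and *Chat*, choline acetyltransferase, in 19.8% against 0.181% of oligodendrocyte nuclei. *Calb2* was found in 22.9% and *Egfr* in 86.5% of its nuclei, but *Crh* in 3.13% and *Cck* in 4.17%. *Vwc2* (85.4%), *Creb5* (38.5%), *Ostf1* (33.3%) and *Rspo2*, a Wnt pathway agonist (31.3%), also led it.

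Sub-cluster 5 (53 nuclei) had the highest share of nuclei with *Cck*. *Cck*, the cholecystokinin precursor, had a UMI in 60.4% of its nuclei, beside 28.7% in sub-cluster 2 and 26.7% in sub-cluster 7, *Cnr1* in 94.3%, *Tac2* in 77.4%, *Cxcl14* in 56.6% and *Htr3a*, the serotonin-gated channel, in 35.8%. *Chat* had none in these 53 nuclei, which allows up to 5.66% of nuclei with a UMI and sets no limit on nuclei that express the gene. *Egfr* was found in 47.2%.

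Sub-cluster 6 (43 nuclei) had *Npy*, the neuropeptide Y precursor, in 46.5%, *Cdh6*, a cadherin, in 76.7%, *Egfr* in 93.0% and *Tac2* in 55.8% of nuclei. Sub-cluster 4 (65 nuclei) had *Reln*, the reelin gene, in 41.5%, *Penk*, which encodes proenkephalin, in 38.5% and *Crh* in 35.4%, with *Col15a1*, *Itga4*, *Htr7* and *Kirrel3* leading it. Sub-cluster 3 (66 nuclei) was led by *Stk32a*, *Bcar3*, *Sntb1* and *Apbb1ip* and held *Egfr* in 80.3% of nuclei. *Egfr* therefore ranged from 40.0% of nuclei in sub-cluster 4 to 93.0% in sub-cluster 6.

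Sub-clusters 2 and 7 carried genes of other cells beside *Vip*. In sub-cluster 2 (80 nuclei, median 8226 UMIs) *Slit2* was found in 53.8%, *Meis2* in 46.3%, *Ntng1* in 53.8%, *Bcl11b* in 35.0% and *Sox6* in 22.5% of nuclei, and 41.3% had a high score in Scrublet, a program that compares nuclei with simulated doublets. In sub-cluster 7 (15 nuclei, median 13183 UMIs) *Mbp*, myelin basic protein, was found in 100% (against 98.1% of oligodendrocyte nuclei), with *Cdh19*, *Bcas1* and *Mog* leading, and 86.7% had a high score. Over all members 53 (12.7%) had a high score, and the other 5 sub-clusters had between 0 and 6.25%. By library it was 17 of 121 members in WT 1, 20 of 144 in WT 2, 9 of 90 in HET 1 and 7 of 63 in HET 2. Each HET library thus had a smaller share than each WT library. The cut reads a larger share as high in a larger library, and both WT libraries held more called nuclei. Whether doublets were more common among WT members was not tested. Doublets were not removed in the main results. The share of Vip nuclei and the counts of genes in the comparisons of HET with WT were repeated without sub-clusters 2 and 7. This alternative was added after the data were seen.

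**Figure D2:**
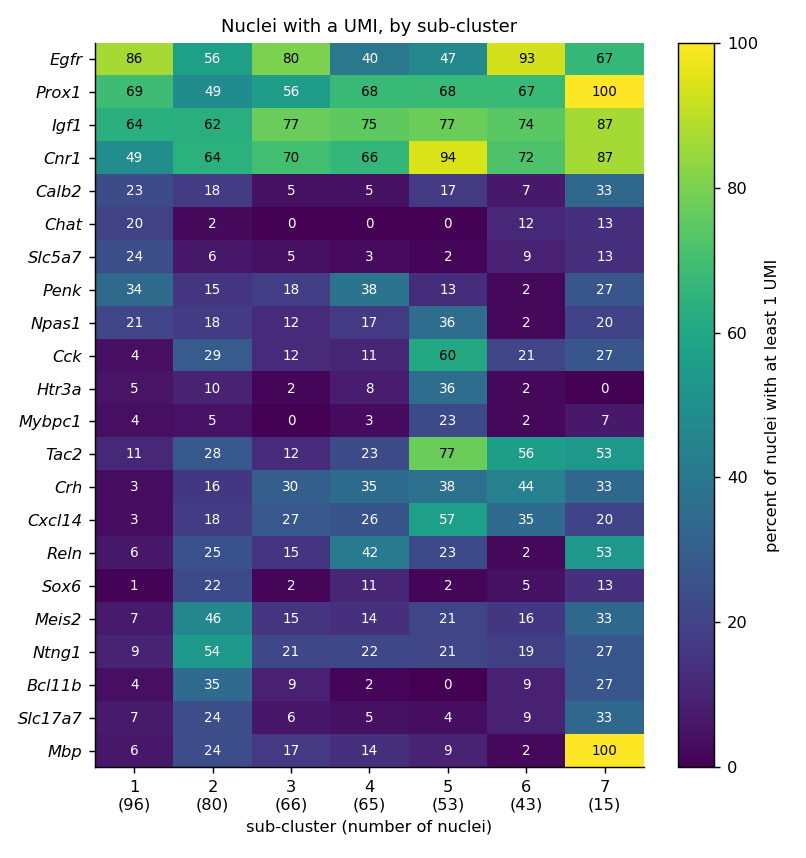
Percent of nuclei with at least 1 UMI of each gene (rows) in the 7 sub-clusters of Vip nuclei (columns, with the number of nuclei), shown by colour and number. *Chat* and *Slc5a7* are highest in sub-cluster 1, *Cck* and *Htr3a* in sub-cluster 5, *Egfr* in sub-cluster 6, *Ntng1* and *Bcl11b* in sub-cluster 2 and *Mbp* in sub-cluster 7.

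A UMI of *Calb2* was found in 59 members and of *Cck* in 87, and 14 held both (23.7% of the *Calb2* nuclei and 16.1% of the *Cck* nuclei). Over all members *Cck* was found in 20.8%. *Chat* was found in 28 members, of which 11 held *Calb2* (39.3%), 1 held *Cck* (3.57%) and 25 held *Egfr* (89.3%). *Tac2* was found in 45 of the 87 *Cck* nuclei (51.7%) and 7 of the 28 *Chat* nuclei (25%), beside 30.9% of all members.

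Vip nuclei made up 0.751% of kept nuclei in WT 1 (exact Clopper-Pearson 95% interval 0.623 to 0.897), 0.944% in WT 2 (0.797 to 1.11), 0.939% in HET 1 (0.755 to 1.15) and 0.563% in HET 2 (0.433 to 0.720). The genotypes overlapped, with HET 1 between the WT libraries and HET 2 below them. The interval of HET 2 lay below those of WT 2 and HET 1 (0.720 against 0.797 and 0.755) and overlapped that of WT 1. HET minus WT was -0.0967 points, a difference that an exact two-sided permutation test over libraries did not separate from the spread (p = 0.667, where the smallest p of 2 against 2 libraries is 0.333). Intervals cover counting error only.

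As a share of the nuclei of the 4 interneuron groups, Vip nuclei were 7.83% in WT 1, 8.13% in WT 2, 7.67% in HET 1 and 6.59% in HET 2. Of the 5447 nuclei of these groups, 4282 were nuclei with *Adarb2* and no *Vip*, so the share rests mainly on that group. Both HET libraries lay below both WT libraries (HET minus WT -0.851 points, exact permutation p = 0.333), and the intervals of all 4 overlapped. After each nucleus was thinned to 3000 UMIs, the shares were 6.55%, 7.76%, 6.51% and 7.0%, and the genotypes overlapped.

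**Figure D3:**
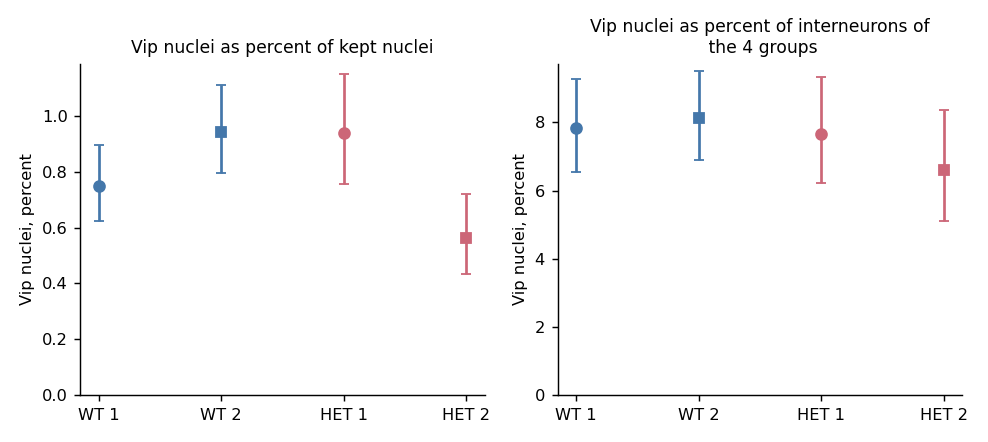
Vip nuclei as a percent of all kept nuclei (left) and of the nuclei of 4 interneuron groups (right) in each library, with exact 95% binomial intervals as bars. HET 2 is the lowest library in both panels, at 0.563% and 6.59%. Its interval lies below those of WT 2 and HET 1 on the left, and all 4 intervals overlap on the right.

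Members with at least 3000 UMIs, thinned to that depth, showed a median of 1448.5 genes in WT 1, 1547 in WT 2, 1467 in HET 1 and 1451 in HET 2. WT 2 was highest, and WT 1 was the lowest, with both HET libraries between them (HET minus WT mean -38.75 genes, exact permutation p = 1). Without thinning the medians were 1934, 2037.5, 2231 and 2159 genes, higher in HET, as was the median depth. Sub-cluster 1 held 21.5%, 21.5%, 25.6% and 25.4% of members, 3.97 points more in HET (exact permutation p = 0.333).

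Expression in HET and WT Vip nuclei was compared on UMIs summed per library with the quasi-likelihood test of edgeR. A gene had to have a UMI in at least 10% of members of either genotype and at least 10 UMIs in all, which left 6835 genes. The adjusted p (Benjamini-Hochberg) was below 0.05 for 0 of them (0%), and DESeq2 also gave 0. At an unadjusted p below 0.05 edgeR gave 295 genes (4.32%) and DESeq2 52. At an unadjusted p below 0.01, the limit used in the study, edgeR gave 50 (0.732%), of which 18 (0.263%) were higher and 32 (0.468%) lower in HET, and DESeq2 gave 8. Scaling by library totals alone turned this split to 9 higher and 42 lower. The likelihood-ratio test of edgeR, the form used in the study, gave 81 genes at this limit and 4 at the adjusted limit. Leaving out 1 library also moved the count, as given under the processing below. Since no gene passed the adjusted limit in the quasi-likelihood test, those below are described by their values.

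The targeted gene was too sparse to be tested. *Csf1r* had 2, 3, 5 and 2 UMIs in WT 1, WT 2, HET 1 and HET 2, in 1.65%, 2.08%, 5.56% and 3.17% of members, beside 3.03% of oligodendrocyte nuclei. At such counts it does not check the genotype labels. Of its ligands, *Csf1* had 15 UMIs and *Il34* 16 over all members. Of the 11 genes of CSF1R signalling and neuron to microglia signals 4 were tested, 3 higher and 1 lower in HET (median 0.13). Without WT 1 the split was 2 higher and 2 lower (median 0.04). The median was 0.26 without WT 2 and 0.06 without HET 2. *Cx3cl1* (fractalkine) was at 48.4, 49.6, 52.0 and 48.3 CPM and *Cd47* at 102, 104, 94.8 and 99.3 CPM, with log2 fold changes of 0.07 (SE 0.28) and -0.07 (SE 0.21).

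*Fam19a1*, which encodes a secreted chemokine-like protein (chr6:96113154-96657198, plus strand, mm10), had the smallest p. Its level was 319, 260, 118 and 93.7 CPM in WT 1, WT 2, HET 1 and HET 2, with no overlap (log2 fold change -1.40, SE 0.22, unadjusted p = 2.84e-05, adjusted p = 0.194). *Ntng1*, which encodes netrin-G1, a membrane-anchored synaptic adhesion protein (chr3:109780040-110144011, minus strand), was at 206, 154, 78.0 and 59.6 CPM (-1.32, SE 0.25, adjusted p = 0.529). *Slit3*, an axon guidance ligand, was at 246, 174, 74.9 and 108 CPM (-1.22, SE 0.26), and *Bcl11b*, a transcription factor of deep-layer and striatal projection neurons, at 51.1, 41.8, 12.2 and 11.4 CPM (-1.92, SE 0.40), both with an adjusted p of 0.903.

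A large part of the UMIs of these 4 genes came from the 2 sub-clusters with high doublet scores. Sub-clusters 2 and 7 held 39.8% of all member UMIs but 75.6% of those of *Fam19a1*, 79.3% of *Ntng1*, 82.4% of *Slit3* and 78.0% of *Bcl11b*, and likewise 78.3% of *Gda*, guanine deaminase, and 87.1% of *Iqgap2*, a scaffold protein. The last 2 were at 45.7, 31.3, 10.7 and 11.4 CPM and at 61.8, 34.0, 15.3 and 8.51 CPM. Without sub-clusters 2 and 7, *Fam19a1* was at 88.3, 129.6, 41.6 and 76.6 CPM and *Ntng1* at 63.7, 63.7, 19.4 and 29.2 CPM, still lower in each HET library than in each WT library, with log2 fold changes of -0.92 and -1.40, and *Slit3* had -0.95. *Bcl11b*, *Gda* and *Iqgap2* did not pass the detection filter without these sub-clusters. With high Scrublet scores removed instead, the log2 fold change was -0.18 for *Fam19a1* (unadjusted p = 0.554), -1.17 for *Ntng1*, -1.61 for *Slit3* and -1.57 for *Bcl11b*. Under a stricter rule, with at least 4 *Vip* and 6 *Adarb2* UMIs and none of *Sst* or *Slc17a7*, it was -0.50 for *Fam19a1* (unadjusted p = 0.107), -0.52 for *Ntng1* (unadjusted p = 0.133), -1.33 for *Slit3* and -2.29 for *Bcl11b*. The part that sub-clusters 2 and 7 play in these differences was not tested beyond this.

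*Pcdh11x*, a protocadherin on the X chromosome (chrX:120290259-120910619, plus strand), had 43.8% of its UMIs in sub-clusters 2 and 7, against 39.8% for all genes. By library this was 51.6%, 26.8%, 71.1% and 26.7% in WT 1, WT 2, HET 1 and HET 2, against 45.2%, 38.5%, 44.8% and 22.2% for all genes. *Pcdh11x* was at 383, 405, 243 and 213 CPM, a log2 fold change of -0.75 (SE 0.18, adjusted p = 0.997). Without sub-clusters 2 and 7 it was at 338, 482, 128 and 201 CPM. It was then the 1 gene with an adjusted p below 0.05, having fallen by 1.33 on the log2 scale (edgeR, adjusted p = 0.00112). The log2 fold change was -0.94 with high Scrublet scores removed and -0.57 under the stricter rule (edgeR, unadjusted p = 0.000343 and 0.0280). *Pcdh11x* was past the adjusted limit in neither.

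*Gdi2*, a regulator of Rab GTPases, was at 78.0, 88.8, 39.8 and 25.5 CPM (-1.25, SE 0.29), with 36.0% of its UMIs in the 2 sub-clusters. *Nfatc3*, a calcium-responsive transcription factor, was at 64.5, 82.3, 32.1 and 28.4 CPM (-1.22, SE 0.30). *Dus3l*, a tRNA-modifying enzyme, rested on 19, 14, 2 and 1 UMIs. For *Gdi2* and *Nfatc3* the fold change was as large without sub-clusters 2 and 7 (-1.57 and -1.28).

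Among the 10 genes higher in HET with the smallest p, *Slc5a7*, the choline transporter that also led sub-cluster 1, was at 10.8, 19.6, 50.5 and 31.2 CPM (log2 fold change 1.51, SE 0.41, unadjusted p = 0.00294, adjusted p = 0.997). *Chat* was at 4.03, 17.0, 33.7 and 5.68 CPM and overlapped between genotypes (1.13, SE 0.68). *Fastkd1*, a mitochondrial RNA-binding protein gene, rested on 6, 6, 17 and 10 UMIs (1.76, SE 0.47). *Ube2f*, a NEDD8-conjugating enzyme, was at 32.3, 28.7, 62.7 and 71.0 CPM (1.14, SE 0.30), and *Gpbp1*, a promoter-binding factor, at 25.5, 19.6, 53.5 and 45.4 CPM (1.18, SE 0.34).

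The long noncoding transcript *A330015K06Rik*, annotated antisense to *Kcnab1*, was at 76.6, 106, 158 and 219 CPM (1.05, SE 0.23, adjusted p = 0.945). Of the genes higher in HET it had the smallest p (0.000692), but whether reads of the gene on the other strand were counted for it was not tested. *A330008L17Rik*, *Gm44532*, *Gm10785* and *4930445B16Rik*, also noncoding, had log2 fold changes between 0.72 and 1.67. These 4 likewise overlap a gene on the other strand (*Gm15680* for *A330008L17Rik*, *B130024G19Rik* for *Gm44532*, *Atp5o* and *Cryzl1* for *Gm10785*, *Lrrc4c* for *4930445B16Rik*). Whether reads of those genes were counted for them was not tested.

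*P2ry12*, a purinergic receptor best known from microglia, was at 18.8, 22.2, 39.8 and 53.9 CPM (log2 fold change 1.17, SE 0.36, unadjusted p = 0.00631, adjusted p = 0.997). It lies inside *Med12l* on the opposite strand, and whether reads of *Med12l* were counted for it was not tested. The 13 genes of the microglia list summed to 64.5, 106, 161 and 153 CPM, and *P2ry12* had the most UMIs of them. *Tmem119* and *Trem2* had 1 UMI each, *C1qa* 10 and *Cx3cr1* 27. The part of microglial RNA in this difference was not tested.

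**Figure D4:**
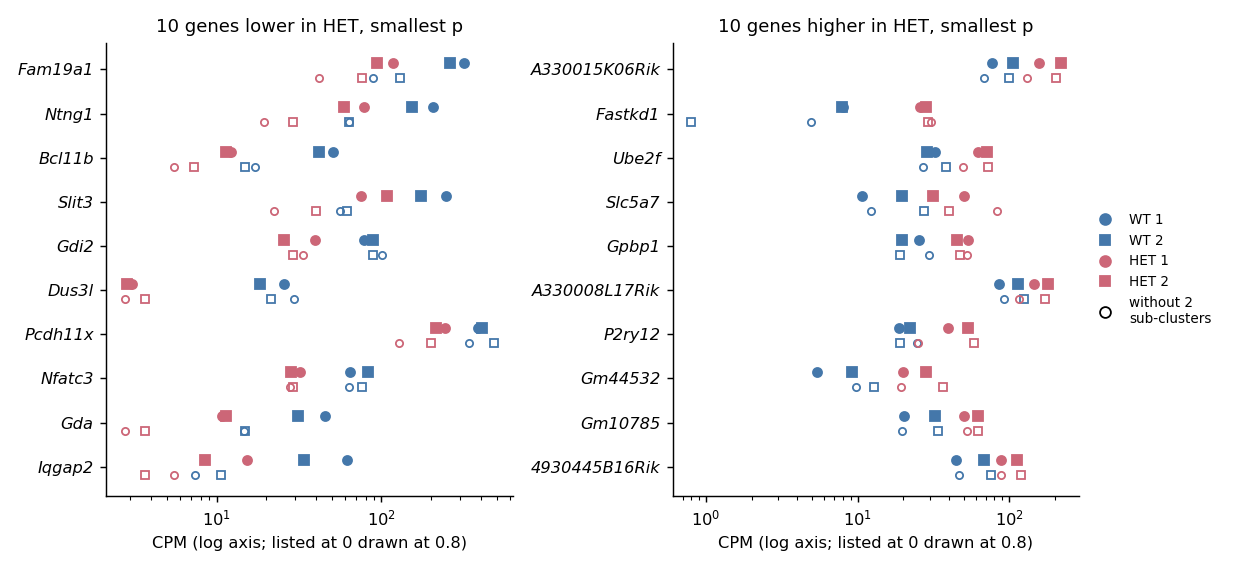
CPM on a log axis of the 10 genes lower (left) and the 10 higher (right) in HET Vip nuclei with the smallest p, 1 symbol per library; open symbols show the level without sub-clusters 2 and 7. *Ntng1* and *Slit3* drop to lower levels in all 4 libraries when these nuclei are left out, while *Gdi2* and *Dus3l* stay near theirs.

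The genes that define or serve Vip cells were described by list, beside 3484 tested genes higher and 3351 lower in HET (median log2 fold change 0.01). Of 36 Vip subclass genes 24 were tested, 12 higher and 12 lower in HET, with a median of 0.00 (-0.20 without WT 1 and 0.20 without WT 2). A p below 0.01 was found for 1 of the 24 (*Pcdh11x*), beside 50 of 6835 tested genes (0.732%). *Egfr* had a log2 fold change of -0.01 (SE 0.23), *Igf1* of 0.07 (SE 0.24), *Cnr1* of 0.03 (SE 0.19), *Tac2* of -0.34 (SE 0.23) and *Crh* of -0.24 (SE 0.33). The libraries of the 2 genotypes overlapped for *Igf1*, *Tac2* and *Crh*, and for *Egfr* both HET values lay between those of WT 2 and WT 1. The 6 genes of the rule are counted in their lists, such as *Vip* and *Adarb2* in the Vip subclass list and *Gad1* and *Gad2* among the GABA genes. No test of them is given, and the splits and medians of lists that hold them are in part set by the rule.

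*Htr3a* was at 10.8, 20.9, 33.7 and 25.5 CPM and had the largest positive value among serotonin and acetylcholine receptor genes (0.96, SE 0.43, unadjusted p = 0.044, adjusted p = 0.997). Of the 10 genes tested on that list, 5 were higher and 5 lower, with a median of 0.05 (-0.09 without HET 2 and 0.39 without HET 1). *Htr2c* was at 331, 334, 239 and 423 CPM, with overlapping genotypes. The nicotinic subunit gene *Chrna7* was at 153, 136, 154 and 207 CPM, with both HET libraries above both WT libraries, HET 1 only just. Of 12 neuropeptide precursors tested, 5 were higher and 7 lower (median -0.14), and none had an unadjusted p below 0.05. This split turned with the WT libraries, to 0 higher and 12 lower without WT 1 (median -0.46) and 10 higher and 2 lower without WT 2 (median 0.32).

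Of 15 CGE lineage factors tested, 10 were higher and 5 lower in HET (median 0.10), but without HET 2 it was 6 of 16 higher (median -0.08). *Nr2f1* (COUP-TF1) was at 52.4, 50.9, 33.7 and 25.5 CPM (-0.73, SE 0.32, unadjusted p = 0.043), and *Maf* at 181, 253, 277 and 295 CPM (0.43, SE 0.20, unadjusted p = 0.049). Neither was past the adjusted limit. *Prox1* (222, 202, 199 and 272 CPM) and *Npas3* (2319, 2590, 2144 and 3264 CPM) overlapped between genotypes. Of the 7 MGE factors 2 were tested and both were lower in HET (*Satb1*, -0.60, SE 0.34, and *Etv1*, -1.13, SE 0.46), with a median of -0.87 that was -2.13 without HET 1 and -0.46 without HET 2. Sub-clusters 2 and 7 held 67.9% of the *Etv1* UMIs, and without them it did not pass the detection filter. Of the 14 ERBB and neuregulin genes 5 were tested, 2 higher and 3 lower, with a median of -0.01. The latter split was 4 higher and 1 lower without WT 1 (median 0.10), 1 and 4 without WT 2 (-0.29) and 0 and 5 without HET 2 (-0.11).

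No GABA gene passed the adjusted limit. Of 10 genes for GABA synthesis, packaging and uptake 3 were higher and 7 lower (median -0.02; 5 and 5 without WT 2 or HET 2, and median -0.17 without HET 1), with *Slc32a1*, the vesicular GABA transporter, at 41.7, 43.1, 58.1 and 48.3 CPM. Of 12 GABA receptor subunits 4 were higher and 8 lower (median -0.06; 7 higher and 5 lower without WT 1, median 0.04). Of 20 glutamate receptor subunits 8 were higher and 12 lower (median -0.07, but 13 higher and 7 lower without WT 1, median 0.04). An unadjusted p below 0.05 was found for 3 of the 20, beside 295 of 6835 tested genes (4.32%). These were *Gria3* (431, 344, 236 and 278 CPM), *Grik3* (92.8, 70.5, 55.1 and 31.2 CPM) and *Grm8* (987, 969, 1348 and 1263 CPM, higher in HET). Sub-clusters 2 and 7 held 63.3% of the *Gria3* UMIs, and without them the log2 fold change went from -0.58 to -0.12 for *Gria3*, from -0.81 to -0.61 for *Grik3* and from 0.45 to 0.23 for *Grm8* (unadjusted p = 0.621, unadjusted p = 0.150 and unadjusted p = 0.282).

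Metal handling was a theme of the study, so its genes were followed in these nuclei. Of 27 genes 13 were tested, 7 higher and 6 lower in HET, with a median of 0.03. Without WT 1 this became 3 higher and 10 lower (median -0.16), without WT 2 it was 8 higher and 7 lower (median 0.19), and with no detection filter 10 of the 27 were higher and 17 lower (median -0.33). The metallothionein genes, whose proteins bind zinc and copper, had the lowest values of the list. *Mt3* was at 18.8, 41.8, 10.7 and 14.2 CPM (-1.29, SE 0.51, unadjusted p = 0.0256, adjusted p = 0.997), *Mt1* at 18.8, 45.7, 9.18 and 25.5 CPM (-1.04, SE 0.55), and *Mt2* had 5, 9, 0 and 0 UMIs. WT 2 was the highest library for all 3, and WT 1 overlapped HET 2 for *Mt1*. Without WT 2 the log2 fold changes were -0.65 for *Mt3* and -0.32 for *Mt1*, and without HET 1 they were -1.04 and -0.29. They were -1.71 and -1.50 without WT 1, -1.49 and -1.80 without HET 2, and -1.20 and -1.26 without sub-clusters 2 and 7. *Cp*, which marked Vip nuclei, had a log2 fold change of 0.24 (SE 0.30). *Mt1* and *Mt3* are also on the astrocyte list, and WT 2 was the highest library for 11 of the 15 genes of that list with a UMI.

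Ribosomal protein genes were lower in HET on the list median, and that value rested on WT 2. Of 63 tested, 59 were below 0 (median -0.57 on the log2 scale). In edgeR 1 had an unadjusted p below 0.01, *Rpl9* at 59.1, 102, 36.7 and 42.6 CPM, beside 0.732% of all tested genes. For 12, all lower in HET, the unadjusted p was below 0.05, beside 4.32% of all tested genes. Without the 2 sub-clusters with high doublet scores, 58 of 61 were lower (median -0.79). Of these, 12 had an unadjusted p below 0.01, beside 1.51% of all genes tested there. Without WT 1, 64 of 67 were lower (median -0.94). Without WT 2, 30 of 58 were higher and 28 lower, with a median of 0.01. Genes of the nuclear-encoded respiratory chain were lower for 44 of 56 (median -0.27), with *Ndufa4* at 45.7, 64.0, 24.5 and 25.5 CPM (unadjusted p = 0.00703). Their median was -0.08 without WT 2 and -0.45 without WT 1. Genes of the mitochondrial genome were lower for 10 of 11 (median -0.34), whereas without WT 2 all 11 were higher (median 0.51). Without WT 1, 11 of 12 were lower (median -0.82).

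The same library stood out in the other groups. Ribosomal protein genes summed to 1688, 3208, 1800 and 1469 CPM in other *Adarb2* nuclei, to 2035, 3954, 1838 and 1719 CPM in *Sst* nuclei and to 1646, 3798, 2080 and 1424 CPM in oligodendrocyte nuclei. WT 2 was thus about as far above the rest there as in Vip nuclei. Of the genes of the integrated stress response, 11 of 26 were tested, 6 higher and 5 lower, with a median of 0.04, which was -0.21 without HET 2 (4 higher, 7 lower) and 0.12 without WT 2 (8 higher, 3 lower).

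**Figure D5:**
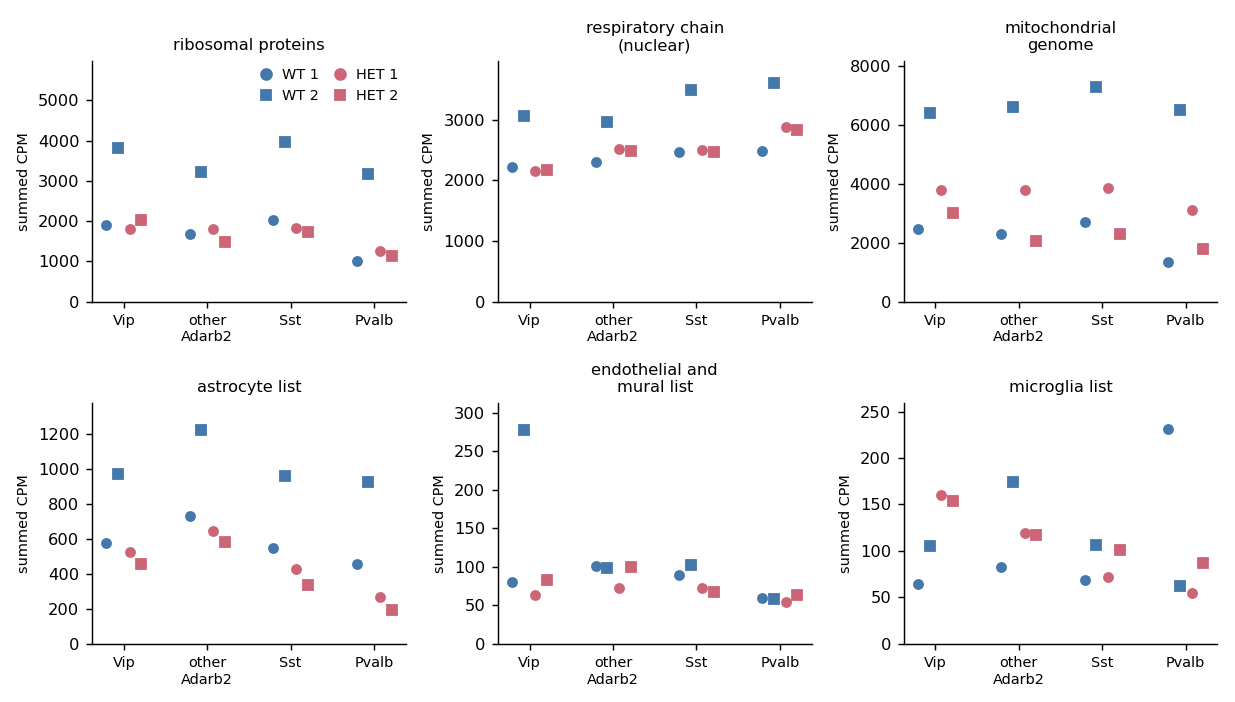
Summed CPM of 6 gene lists in each library for Vip nuclei and the 3 other interneuron groups. WT 2 (blue squares) is the highest library for ribosomal proteins, respiratory chain, mitochondrial genome and astrocyte list in all 4 groups, for the endothelial and mural list it stands apart in Vip nuclei (278 CPM), and the microglia list is highest in the HET libraries in Vip nuclei (161 and 153 CPM).

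Markers of other cells were followed in the same nuclei. The 16 astrocyte genes summed to 575, 972, 528 and 454 CPM with *Slc1a2* the most abundant and *Aqp4* at 0. Of these 11 were tested and all 11 were lower in HET (median -1.01). *Glul*, glutamine synthetase (21.5, 58.8, 10.7 and 14.2 CPM), was the 1 with a p below 0.01, beside 0.732% of all tested genes. Without WT 2, 5 of 7 were lower (median -0.32). The 14 excitatory neuron genes summed to 1839, 1596, 1744 and 1203 CPM with *Arpp21* the most abundant and none at 0. Of 9 tested 8 were lower (median -0.63, but -0.18 without HET 2, -0.12 without WT 1 and -1.04 without HET 1). *Cux2* (79.3, 74.4, 47.4 and 22.7 CPM) was the 1 with a p below 0.01, beside 0.732% of all tested genes. HET 2 was the lowest library for 11 of the 14, and 66.5% of the *Cux2* UMIs and 86.7% of those of *Sv2b* came from sub-clusters 2 and 7.

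The 10 MGE interneuron genes summed to 2012, 1746, 1363 and 1192 CPM (*Kcnc2* most abundant, *Chodl* at 0), and all 4 tested were lower in HET (median -0.55). Their median was -0.33 without WT 1 and -0.84 without HET 1. The 11 genes of striatal projection neurons summed to 1371, 1868, 1511 and 1289 CPM (*Pde10a* most abundant, none at 0), with all 4 tested lower (median -0.17; -0.44 with 3 of 4 lower without WT 1 and -0.04 with 2 of 4 lower without WT 2). The 16 oligodendrocyte genes summed to 220, 754, 639 and 380 CPM (*St18* most abundant, none at 0), with 3 of 4 tested higher (median 0.17). That split was 4 of 4 higher without WT 2 (median 1.40), 1 of 6 higher without WT 1 (median -0.59) and 0 of 3 higher both without HET 1 (median -0.39) and with high Scrublet scores removed (median -1.99). WT 1 was the lowest library for oligodendrocyte genes. The 10 genes of Lamp5, Ndnf or Reln interneurons summed to 349, 460, 431 and 318 CPM (*Kit* most abundant), with 2 of 3 tested higher (1 of 4 without WT 1 and 3 of 3 without WT 2), and of the 12 endothelial and mural genes (*Bsg* most abundant, none at 0) 1 was tested, at -0.49, but at 0.06 without WT 2 and 0.05 without HET 1. The part that RNA of other cells plays in the differences between genotypes was not tested.

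Whether the genotypes differed in another way in Vip nuclei than in the 3 other groups pooled was tested as an interaction in edgeR. Most of the pool were nuclei with *Adarb2* and no *Vip*. Of these, 248 of 1239 in WT 1 and 279 of 1370 in WT 2 had a high Scrublet score. In HET 1 it was 101 of 935 and in HET 2 86 of 738. The cut reads a larger share as high in a larger library, and the part of such nuclei in the interaction was not tested. Of 6835 genes, 103 (1.51%) had an unadjusted p below 0.01 and 2 (0.0293%) an adjusted p below 0.05. *Cadps2*, which serves the release of dense-core vesicles and the peptides they carry, was at 200, 115, 229 and 261 CPM in Vip nuclei and 282, 183, 162 and 174 CPM in the others. HET minus WT was 0.65 on the log2 scale in Vip nuclei and -0.46 in the others, a difference of 1.13 (SE 0.18, adjusted p = 0.0175). WT 2 was the lowest library in Vip nuclei and WT 1 the highest in the others. Without sub-clusters 2 and 7 the difference was 1.24 (adjusted p = 0.145).

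*St18*, a transcription factor of oligodendrocytes, differed by 1.43 (SE 0.25, adjusted p = 0.0267). It was at 36.3, 124, 176 and 59.6 CPM in Vip nuclei and 37.0, 159, 67.5 and 44.5 CPM in the others, and 90.3% of its UMIs in Vip nuclei lay in sub-clusters 2 and 7. *Prox1os* differed by 1.64 and *A330015K06Rik* by 0.84. In the other direction *Fam19a1* (-1.05, adjusted p = 0.0648), *Ntng1* (-1.12), *Pcdh11x* (-0.81), *Iqgap2* (-1.96) and *Gda* (-1.95) had the smallest p. Without sub-clusters 2 and 7 the difference was -0.58 for *Fam19a1* and -1.21 for *Ntng1* (edgeR, adjusted p = 0.907 and 0.518). *Iqgap2* and *Gda* did not pass the detection filter there. *Pcdh11x* was at 333, 357, 344 and 379 CPM in the other interneurons, and the genotypes overlapped there. Without sub-clusters 2 and 7, 1 of 6230 genes had an adjusted p below 0.05 in the interaction test, *Pcdh11x* at -1.40 (edgeR, adjusted p = 0.000217), and *St18* no longer passed the detection filter.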

How the data were processed

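Single-nucleus RNA was counted in brains of 2 WT and 2 HET mice. The authors' notes name Cell Ranger 5.0.0 and the mm10 build, and they deposited raw UMI counts, whole numbers for each gene in each called nucleus; the strand setting was not given in the sources used here. The 4 libraries held 112226479, 89727416, 89436507 and 89799327 UMIs in 16415, 16301, 9905 and 11369 called nuclei (WT 1, WT 2, HET 1 and HET 2). Nuclei kept numbered 16114, 15247, 9589 and 11182.

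Members and gene lists were chosen with earlier results of these data known. The lists covered Vip subclass genes, lineage factors, GABA and glutamate genes, peptides, receptors, ERBB genes, channels, immediate early genes, metal handling, the stress response, CSF1R, ribosomal and mitochondrial genes and markers of other cells. Genes were named by rule: the 10 with the smallest p each way, list members past a limit or with the most UMIs, the 20 with the largest ratios each way against other groups, the 8 leading each sub-cluster and 5 interaction genes each way. Genes of other cells and receptor genes named outside this rule were chosen after their values were seen, and a few genes that the rule covers are not reported here.

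UMIs of members were summed per library and compared with edgeR 4.0.16 under R 4.3.3 (TMM scaling, quasi-likelihood test, two-sided; limma 3.58.1), and DESeq2 1.42.0 was an alternative. The design followed the study's pseudobulk comparison with the quasi-likelihood in place of its likelihood-ratio test. With 1 mouse per library and 2 per genotype, the p-values measure the spread between 4 animals. The script was tested on simulated data. Sub-clusters used scanpy 1.11.5 and leidenalg 0.10.2 (Python 3.11.15; 1000 variable genes centred within libraries, 10 principal components, 15 neighbours, resolution 0.5, seed 1). Scrublet scores were read as high for the top 0.8% of nuclei per 1000 nuclei in a library; such nuclei were kept. Gene positions and overlaps came from GENCODE M21, which matched 30934 of 31053 identifiers. Shares carry exact Clopper-Pearson 95% intervals. Alternatives were other tests, scalings, filters, member rules, the replicate block and leaving out each library.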

Additional observations from a re-analysis of the deposited data

Results flagged for a closer look

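*Cadps2* and *St18* drew attention because the difference between HET and WT was not the same in Vip nuclei as in the other interneuron groups, by the interaction test of edgeR (adjusted p = 0.0175 and 0.0267). The log2 difference was 1.13 for *Cadps2* and 1.43 for *St18*. For *Cadps2*, both HET libraries were above both WT libraries in Vip nuclei and below both in the other groups. For *St18* neither comparison separated the genotypes. Sub-clusters 2 and 7 held 54.1% of the *Cadps2* UMIs in Vip nuclei, by library 75.2% in WT 1, 30.7% in WT 2, 75.3% in HET 1 and 7.61% in HET 2. Without those nuclei *Cadps2* was at 90.7, 129.6, 102.6 and 310.2 CPM and the genotypes overlapped. The HET minus WT fold of *Cadps2* in Vip nuclei was then 0.86 on the log2 scale (unadjusted p = 0.00233) against 0.65 with all members, and its interaction difference 1.24 (adjusted p = 0.145); *St18* no longer passed the detection filter. Against *Adarb2* nuclei with at least 2 UMIs of *Lamp5* and *Ndnf*, a group added after the data were seen, the differences were 0.88 and 1.15 with adjusted p = 0.948 for each. Neither gene was past the adjusted limit when WT 2, HET 1 or HET 2 was left out, and both were without WT 1.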

How the results depend on the processing

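Each alternative was run on its own. The 50 genes at an unadjusted p below 0.01 became 81 with edgeR's likelihood-ratio test, 8 with DESeq2, 191 with no detection filter, 95 with members chosen after thinning to 3000 UMIs, 84 under a stricter rule (at least 4 *Vip* and 6 *Adarb2* UMIs and none of *Sst* or *Slc17a7*, changed together), 94 without sub-clusters 2 and 7 (19 shared with the 50), and 25 to 95 when 1 library was left out (91 without WT 1, 95 without WT 2, 40 without HET 1, 25 without HET 2). Genes with an adjusted p below 0.05 numbered 4 with the likelihood-ratio test (*Fam19a1*, *Ntng1*, *Bcl11b* and *Slit3*), 16 with no filter, 3 after thinning (*Ntng1*, *Slit3* and *Unc5d*), 1 with high Scrublet scores removed (*Gm28928*), 1 without sub-clusters 2 and 7 (*Pcdh11x*), and 0 with DESeq2, both scalings, the stricter rule and each library left out. The replicate block, for numbers that only 2 pairs share (correlation of deviations 0.0287 over 3298 genes), gave 76 genes at the unadjusted limit and 2 at the adjusted limit (*Fam19a1* and *Ntng1*).

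The 2 interaction genes became 18 with the likelihood-ratio test, 27 with no filter, 1 without sub-clusters 2 and 7 (*Pcdh11x*), 0 against *Lamp5* or *Ndnf* nuclei and 0 to 9 with 1 library left out (9 without WT 1, 3 without HET 1, none of them the original 2, and 0 without WT 2 or HET 2). The 103 at the unadjusted limit became 231 with no filter and 64 against *Lamp5* or *Ndnf* nuclei. With 1 library left out the difference in the share of kept nuclei ran from -0.284 to 0.0909 points (9.06e-05 without WT 2, 0.0909 without HET 2) and that in genes per nucleus from -88 to 10.5 (without WT 2), and the latter was 209.25 without thinning.

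Of 491 fold changes of 37 named genes, 379 kept direction and side of the unadjusted limit, 90 lost it, 20 gained it and 2 reversed. Those were *A330008L17Rik* at -0.16 and *Grik3* at 0.012, both with members chosen after thinning. The causes were not tested. The 153 HET members, 63 of them in HET 2, limit what these counts can show. In data simulated for this comparison, with 200 of 6835 genes changed, recovery was read at 3 sizes of change. At log2 changes of 1, 1.5 and 2, 63.5%, 90% and 95.5% of the changed genes were recovered at the unadjusted limit. At the adjusted limit it was 38%, 78% and 88%.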

Other observations

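Receptors for neuropeptide Y were higher in Vip nuclei than in the other interneuron groups, while the peptide itself led 2 of the sub-clusters. *Npy1r* was at 32.3, 43.1, 41.3 and 51.1 CPM in WT 1, WT 2, HET 1 and HET 2, against 7.74 in other *Adarb2* nuclei, 3.96 in *Sst* nuclei and 3.70 in *Pvalb* nuclei, and had a UMI in 19.9% of members and 2.94% of oligodendrocyte nuclei. *Npy2r* was at 20.1 CPM over the libraries against 3.33, 2.36 and 1.30, and *Npy5r* at 19.6 against 8.98, 4.59 and 1.70. The receptors for the peptide of these cells were sparse, with 24 UMIs of *Vipr1* and 15 of *Vipr2* over all members. Of 26 neuropeptide receptor genes 6 were tested between genotypes, and 5 were higher and 1 lower in HET (median log2 fold change 0.31, none at an unadjusted p below 0.05; median 0.08 without WT 1).

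Serotonin receptor genes other than *Htr3a* were also present. *Htr4* was at 113, 141, 118 and 125 CPM against 71.0, 39.5 and 50.5 in the other groups, and *Htr1f* at 114 over the libraries against 212, 118 and 148. Of 36 voltage-gated channel genes 35 were tested between genotypes, with 16 higher and 19 lower in HET (median -0.07, but -0.03 without WT 1 and -0.12 without HET 1). *Kcnq5*, a potassium channel, was the most abundant at 2436, 2008, 2369 and 2540 CPM. Of 20 immediate early genes, which neurons switch on with activity, 7 were tested, with 2 higher and 5 lower (median -0.08). Without WT 1, 5 of 5 were higher (median 0.59), without HET 2, 7 of 10 were higher (median 0.48), and without WT 2 the median was -0.53. *Homer1* was at 199, 171, 329 and 153 CPM and *Fos* had 39, 4, 11 and 5 UMIs, so that WT 1 stood apart for *Fos* and HET 1 for *Homer1*.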
